A study of Homo sapiens with 12 samples.

Results

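The 9 genes described here encode enzymes of serine synthesis and of folate-dependent one-carbon metabolism, namely PHGDH, PSAT1, PSPH, SHMT1, SHMT2, MTHFD1, MTHFD2, MTHFD1L and ALDH1L2. They were chosen by name from the 58735 genes of the count table, and all 9 were among the 20821 genes that passed the filter on low counts. RNA-seq was performed on K562 cells, a human erythroleukemia line driven by the fusion kinase BCR-ABL1, in 4 groups of 3 biological replicates. Mock DMSO cells received the vehicle alone (DMSO), mock nilotinib cells received 0.1 μM nilotinib, an inhibitor of BCR-ABL1 and other tyrosine kinases, hemin DMSO cells received vehicle and then 50 μM hemin for 24 h, and hemin nilotinib cells received nilotinib and then hemin. Hemin, the oxidised form of heme, is a classical inducer of erythroid differentiation in this line. The library names mark the mock libraries as time 0 and the hemin libraries as 24 h, so that hemin and 24 h more in culture (and, in nilotinib-treated cells, more time with the drug) cannot be told apart. All data come from 1 cell line, whose dependence on BCR-ABL1 limits it as a model of normal erythroid cells.

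Serine is made from the glycolytic intermediate 3-phosphoglycerate in sequential steps by the dehydrogenase PHGDH, the aminotransferase PSAT1 and the phosphatase PSPH. The hydroxymethyltransferases SHMT1 (cytosol) and SHMT2 (mitochondria) then pass a carbon from serine to tetrahydrofolate and leave glycine. In mitochondria MTHFD2 and MTHFD1L carry that unit on to formate while ALDH1L2 burns it to carbon dioxide with gain of NADPH, and in the cytosol the trifunctional MTHFD1 readies it for purine and thymidylate synthesis. Several genes of this pathway are textbook targets of ATF4, the transcription factor of amino acid and mitochondrial stress, and of MYC.

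The libraries held between 33457078 and 50506990 counts, and replicates of a group correlated at a Pearson r of 0.969 to 0.992 (log2 CPM, across genes, which are not independent replicates). Markers of K562 and erythroid cells were present, with GATA1 between 130 and 400 CPM (counts scaled to a library size of 1e+06 with TMM factors). Of the 12 markers of other cells, CD3E, MS4A1 and CD163 were at or near 0, whereas the epithelial genes EPCAM, KRT8, KRT18 and KRT19 were expressed in every library. The summed level of the 8 erythroid markers ranged between 1103 and 1854 CPM in mock DMSO, 5454 and 6616 in mock nilotinib, 972.8 and 1161 in hemin DMSO and 3469 and 6242 in hemin nilotinib. The summed marker level for other cells ranged between 749 and 821.9 CPM in mock DMSO, 406 and 607 in mock nilotinib, 846.3 and 1201 in hemin DMSO and 323.2 and 452.6 in hemin nilotinib, and the part of either sum in the results was not tested. Hemin nilotinib replicate 1 stood apart: 5.58% of the genes tested there differed over 2-fold from the mean of the other two replicates, against 0.0768% to 3.11% in the other libraries. Among these were 6 of the 9 enzymes, so that the counts of enzymes and the nilotinib effect on each enzyme in hemin-treated cells are also given without this library.

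Nilotinib lowered most of the 9 enzymes, both in mock and in hemin-treated cells, and hemin alone lowered 3 of them. Without hemin, 8 of the 9 fell with nilotinib and none rose, where 21.8% of all genes tested passed as lower and 20.7% as higher (edgeR's quasi-likelihood test, Benjamini-Hochberg adjusted p under 0.05 over all genes). With hemin, 6 fell and 1 rose, against 31.8% lower and 32.4% higher among all genes. Without hemin nilotinib replicate 1 the count with hemin was 7 lower (MTHFD1 in addition) and 1 higher, and the median change was -1.51 (log2), beside -0.01 over all genes. In that fit 13828 genes passed in either direction, against 13359 in the full fit. The median log2 fold change of the 9 was -1.64 without hemin and -1.78 with it, beside 0 and 0.02 over all genes tested. These comparisons share no library, but they share the fit and its estimate of the spread. In both, 6 enzymes fell: PHGDH, PSAT1, PSPH, SHMT2, MTHFD2 and MTHFD1L. The share of all genes that fell in both was not counted. Without TMM scaling, the summed level of the 9 enzymes was 2467 to 2548 CPM in mock DMSO, 558.9 to 614.1 in mock nilotinib, 1932 to 2087 in hemin DMSO and 337.2 to 721.5 in hemin nilotinib. In these bulk libraries, less RNA per cell and fewer cells that express a gene cannot be told apart.

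Hemin alone lowered 3 of the 9 (PSPH, SHMT1 and MTHFD1) and raised none, against a background of 27.8% lower and 25.7% higher, so that the share of enzymes that fell was near that of all genes. In nilotinib-treated cells hemin lowered PSPH alone and raised no enzyme, against 2.28% lower and 3.52% higher among all genes. The effect of nilotinib differed between hemin-treated and mock cells for SHMT1 and MTHFD1, both with a less negative or more positive change under hemin, against 17.1% of all genes in that direction and 13% in the other. The median log2 fold change of the 9 was -0.11 for hemin alone, -0.09 for hemin with nilotinib and 0.51 for the difference in nilotinib effect, beside -0.05, 0.03 and 0.06 over all genes. Without hemin nilotinib replicate 1, hemin raised 3 enzymes in nilotinib-treated cells (PSAT1, MTHFD2 and ALDH1L2) and still lowered PSPH. Over all genes, the number that passed there rose from 1208 to 2793 in that fit. The difference in nilotinib effect passed for 4 enzymes (PSAT1, SHMT1, MTHFD2 and ALDH1L2) but no longer for MTHFD1. Over all genes it passed for 6271 in the full fit, and for 4862 to 6775 leaving out each library.

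**Figure D1:**
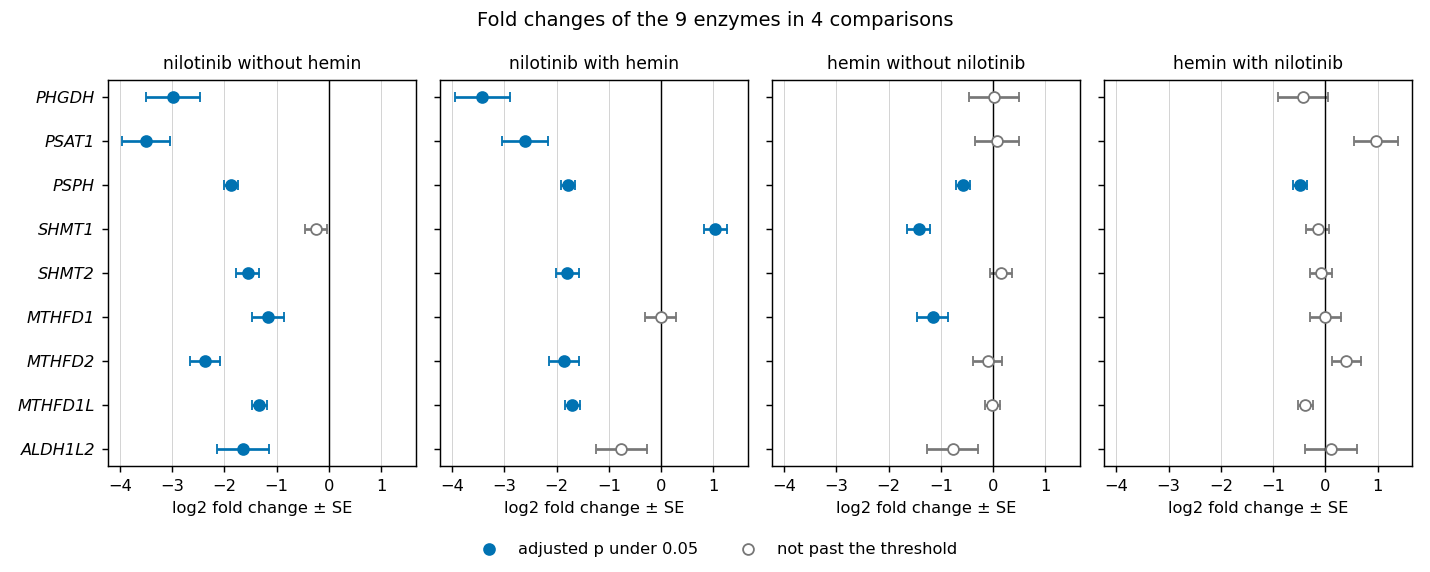
Log2 fold change with its standard error (x axis) for the 9 enzymes (y axis) in 4 comparisons of 3 against 3 libraries, with filled points past an adjusted p of 0.05. Nilotinib moved 8 enzymes down without hemin and 6 with it, while SHMT1 rose by 1.04 with nilotinib in hemin-treated cells.

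Levels can be set side by side between genes only per length, which the deposited FPKM (scaled for both depth and gene length) provide. In mock DMSO cells PSAT1 was highest at 138 ± 9.47 FPKM (SD, n = 3), followed by MTHFD2 at 105 ± 11.9, SHMT2 at 90.8 ± 1.93 and PHGDH at 62.4 ± 4.13. MTHFD1L stood at 38.4 ± 3.61, PSPH at 19 ± 0.781, ALDH1L2 at 14.6 ± 2.05 and MTHFD1 at 11.5 ± 0.378, and SHMT1 was the lowest of the 9 at 4.3 ± 0.191. The mitochondrial SHMT2, MTHFD2 and MTHFD1L were thus each above their cytosolic relatives. In mock nilotinib cells the same scale ran from SHMT2 at 31.1 ± 4.68 FPKM, over MTHFD2 at 20.4 ± 1.01 and PSAT1 at 12.1 ± 2.36, to SHMT1 at 3.64 ± 0.176. PSAT1, first in mock DMSO cells, was below MTHFD1L (15.3 ± 1.83) there, and PHGDH was at 7.93 ± 1.34. The lengths behind these values are those of all annotated exons merged, 9217 bases for PHGDH and 2188 for PSAT1, and the order between genes depends on them.

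PHGDH (ENSG00000092621, GRCh38 chromosome 1, 119648411 to 119744226, plus strand) catalyses the first committed step of serine synthesis. Its level was 561, 622 and 563 CPM in the mock DMSO libraries, and 87.7, 71.6 and 62.4 in the mock nilotinib libraries. It was 545, 661 and 566 CPM in hemin DMSO, and 7.36, 80.5 and 77.0 in hemin nilotinib. All 6 nilotinib libraries were below all 6 DMSO libraries, and the hemin nilotinib replicate 1 was low even among them. Nilotinib lowered PHGDH 7.87-fold without hemin (log2 fold change -2.98, SE 0.516, adjusted p = 0.000215) and 10.7-fold with hemin (-3.42, SE 0.526, adjusted p = 3.2e-05). Without hemin nilotinib replicate 1 the second value was -2.89 (SE 0.171). Hemin did not move PHGDH past the threshold, at 0.02 (SE 0.477) alone and -0.43 (SE 0.482) with nilotinib.

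PSAT1 (ENSG00000135069, chromosome 9, 78297143 to 78330093, plus strand), the next enzyme of the route, had the largest fitted fall of the 9 in mock cells. It stood at 284, 318.5 and 314 CPM in mock DMSO and at 33.05, 23.7 and 23.8 in mock nilotinib, an 11.4-fold fall (log2 fold change -3.51, SE 0.458, adjusted p = 1.4e-05). With hemin it was at 328, 357.5 and 278 CPM in DMSO and 10.8, 72.1 and 75.5 in nilotinib, a 6.08-fold fall (-2.60, SE 0.439, adjusted p = 8.09e-05), or -2.11 (SE 0.168) without replicate 1. Again no nilotinib library reached a DMSO library. Between the nilotinib groups, 2 of 3 hemin libraries were above all mock libraries and replicate 1 was below them all. Over all 3 replicates hemin changed PSAT1 in nilotinib-treated cells by 0.98 (SE 0.423, adjusted p = 0.189), and without replicate 1 by 1.46 (SE 0.155, adjusted p = 4.83e-06), a rise.

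PSPH (ENSG00000146733, chromosome 7, 56011051 to 56051604, minus strand), which releases free serine, was the enzyme of the route with the closest replicates. It was at 52.9, 55.1 and 51.3 CPM in mock DMSO, 15.3, 15.2 and 12.97 in mock nilotinib, 38.8, 37.4 and 30.3 in hemin DMSO and 10.49, 10.4 and 10.1 in hemin nilotinib. The 4 groups did not overlap, and each agent gave a lower level than its control. Nilotinib lowered it by 1.87 on the log2 scale without hemin (SE 0.137, adjusted p = 2.56e-08) and by 1.78 with hemin (SE 0.138, adjusted p = 2.08e-08), where the log2 fold change without replicate 1 was also -1.78 (SE 0.156). Hemin lowered it by 0.58 without nilotinib (SE 0.132, adjusted p = 0.0015). With nilotinib the fall of 0.49 (SE 0.136, adjusted p = 0.045) was close to the threshold and was lost with 13 of the alternatives tried, including the fit to those 6 libraries with the replicate number as a block (-0.47, adjusted p = 0.0639). Cells with both agents had 5.14-fold less PSPH than cells with neither. Hemin nilotinib replicate 1, low for PHGDH and PSAT1, was level with the other replicates for PSPH.

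**Figure D2:**
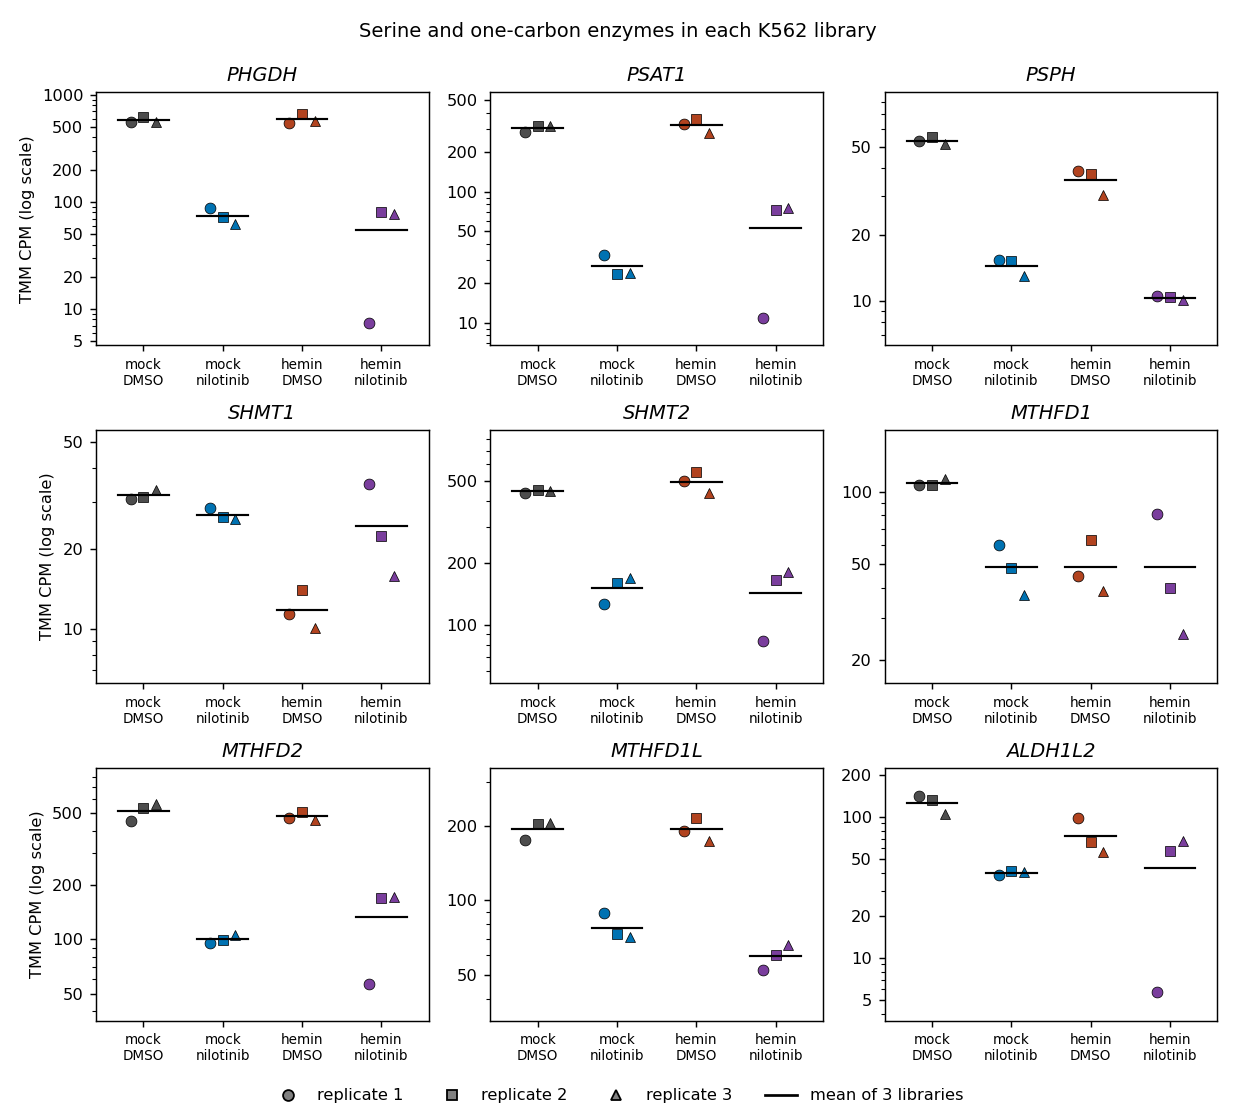
Level in CPM (y axis, log scale, scaled per panel) of each enzyme in the 12 libraries, grouped by treatment (x axis), with the mean of 3 libraries as a bar. PHGDH, PSAT1, SHMT2, MTHFD2 and ALDH1L2 have hemin nilotinib replicate 1 more than 2-fold below the mean of replicates 2 and 3, while MTHFD1 has it above them.

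SHMT2 (ENSG00000182199, chromosome 12, 57229327 to 57234935, plus strand), the mitochondrial hydroxymethyltransferase, followed the serine synthesis genes. Its level was 438, 449.5 and 448 CPM in mock DMSO, 127, 160 and 169 in mock nilotinib, 499, 551 and 437 in hemin DMSO and 83.9, 165 and 180 in hemin nilotinib. Nilotinib libraries were again all below DMSO libraries. The fall was 2.93-fold without hemin (log2 fold change -1.55, SE 0.217, adjusted p = 2.76e-05) and 3.47-fold with hemin (-1.79, SE 0.218, adjusted p = 2.82e-06), or -1.51 (SE 0.155) without replicate 1. Hemin alone gave 0.16 (SE 0.212, adjusted p = 0.558).

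SHMT1 (ENSG00000176974, chromosome 17, 18327860 to 18363563, minus strand), its cytosolic counterpart, behaved otherwise. It was at 30.7, 31.1 and 33.2 CPM in mock DMSO and 28.5, 26.1 and 25.9 in mock nilotinib, then at 11.3, 14.0 and 10.04 in hemin DMSO and 34.8, 22.2 and 15.8 in hemin nilotinib. The hemin DMSO libraries were the lowest 3 of the 12. Hemin alone lowered SHMT1 2.69-fold (log2 fold change -1.43, SE 0.22, adjusted p = 5.45e-05), and nilotinib in hemin-treated cells raised it 2.05-fold (1.04, SE 0.219, adjusted p = 0.000618). Without hemin, nilotinib gave -0.24 (SE 0.214, adjusted p = 0.387), so the nilotinib effect differed by 1.28 (SE 0.306, adjusted p = 0.00543). Without hemin nilotinib replicate 1, the highest library of the gene, the rise was 0.70 (SE 0.169, adjusted p = 0.00148) and the difference 0.94 (SE 0.226, adjusted p = 0.00416). An overlap with SMCR8, on the opposite strand, covers 2.69% of the exon bases of SHMT1, and SMCR8 held 138% to 716% of the counts of SHMT1. Whether counting used the strand is not given in the sources used here.

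Per length, SHMT2 exceeded SHMT1 in each of the 12 libraries, with a ratio of FPKM that moved with both agents. It was 21.2 ± 0.766 (SD, n = 3) in mock DMSO, 8.58 ± 1.66 in mock nilotinib, 63.6 ± 3.95 in hemin DMSO and 10.7 ± 6.79 in hemin nilotinib. The hemin DMSO libraries (59.1 to 66.2) lay above all others, and the nilotinib groups overlapped each other. In hemin nilotinib, replicate 1 was at 3.63 and the other replicates at 11.2 and 17.2. With 3 libraries against 3 an exact permutation test cannot give a two-sided p under 0.1, so these ratios are given without a test.

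**Figure D3:**
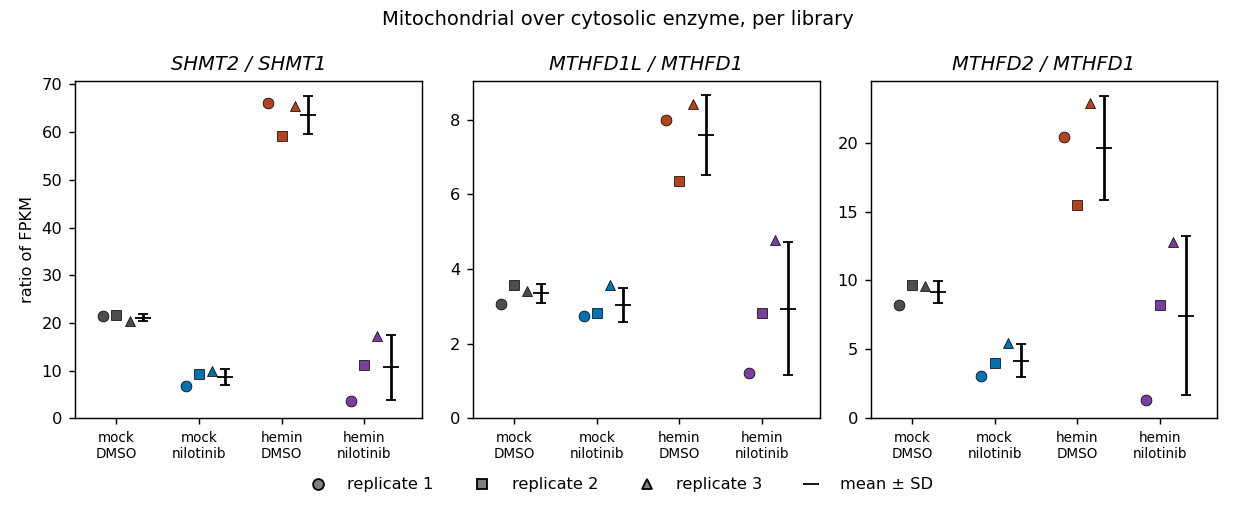
Ratio of FPKM (y axis, from 0) between a mitochondrial enzyme and a cytosolic one in each library by group (x axis), with mean ± SD beside the points. The hemin DMSO libraries are highest in all 3 panels, and SHMT2 over SHMT1 drops from 21.2 to 8.58 with nilotinib in mock cells.

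MTHFD2 (ENSG00000065911, chromosome 2, 74198562 to 74217565, plus strand), the mitochondrial methylenetetrahydrofolate dehydrogenase and cyclohydrolase, was at 455, 537.5 and 561 CPM in mock DMSO and 95.8, 99.7 and 105 in mock nilotinib. In hemin DMSO it was at 472, 509 and 461 CPM, and in hemin nilotinib at 56.6, 169 and 172. Every nilotinib library was below every DMSO library. It fell 5.17-fold with nilotinib in mock cells (log2 fold change -2.37, SE 0.284, adjusted p = 5.81e-06) and 3.63-fold in hemin-treated cells (-1.86, SE 0.279, adjusted p = 2.55e-05), or -1.48 (SE 0.14) without replicate 1 of hemin nilotinib. Hemin in nilotinib-treated cells gave 0.40 (SE 0.272, adjusted p = 0.421), and 0.76 (SE 0.132, adjusted p = 0.000849) without replicate 1. Of its exon bases 33.2% are overlapped on the opposite strand, but the overlapping SLC4A5 held at most 0.694% of the counts of MTHFD2 in any library.

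MTHFD1L (ENSG00000120254, chromosome 6, 150865549 to 151101887, plus strand), the mitochondrial formate-releasing synthetase, was at 175, 204 and 206 CPM in mock DMSO, 88.6, 72.8 and 71.0 in mock nilotinib, 190, 215 and 174 in hemin DMSO and 52.2, 60.2 and 66.0 in hemin nilotinib. Nilotinib lowered it 2.52-fold without hemin (log2 fold change -1.33, SE 0.139, adjusted p = 1.24e-06) and 3.25-fold with hemin (-1.70, SE 0.14, adjusted p = 4.06e-08), or -1.60 (SE 0.15) without replicate 1. Here hemin nilotinib replicate 1 was only slightly below the other replicates, unlike for MTHFD2.

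ALDH1L2 (ENSG00000136010, chromosome 12, 105019784 to 105084577, minus strand), the mitochondrial formyltetrahydrofolate dehydrogenase, was the enzyme whose calls rested most on 1 library. It was at 140, 132 and 106 CPM in mock DMSO and 38.7, 41.3 and 40.9 in mock nilotinib, a 3.12-fold fall (log2 fold change -1.64, SE 0.503, adjusted p = 0.0147). Its levels were 98.45, 66.0 and 56.4 CPM in hemin DMSO and 5.75, 57.1 and 67.5 in hemin nilotinib, and these groups overlapped. There the nilotinib change was -0.76 (SE 0.494, adjusted p = 0.189), and -0.23 (SE 0.186, adjusted p = 0.292) without replicate 1. Without that library the difference in nilotinib effect was 1.42 (SE 0.248, adjusted p = 0.000328). In the same fit hemin alone gave a fall of 0.79 (SE 0.166, adjusted p = 0.000481), where the full fit gave -0.77 (SE 0.492, adjusted p = 0.197). The comparison for hemin alone does not hold that library and shares only the fit and its estimate of the spread. The 6 libraries of that comparison alone gave -0.74 (adjusted p = 0.00323). C12orf45, which overlaps 1.7% of its exon bases on the other strand, held 9.99% to 192% of the counts of ALDH1L2, and exceeded it in the library with the fewest ALDH1L2 counts (200).

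MTHFD1 (ENSG00000100714, chromosome 14, 64388031 to 64463457, plus strand), the cytosolic trifunctional enzyme, was at 107, 107 and 113 CPM in mock DMSO, 60.3, 48.2 and 37.2 in mock nilotinib, 44.55, 63.05 and 38.7 in hemin DMSO and 80.6, 39.75 and 25.8 in hemin nilotinib. The mock DMSO libraries were above all others, and the 3 treated groups overlapped. Nilotinib alone lowered it by 1.16 on the log2 scale (SE 0.3, adjusted p = 0.00511), and hemin alone also by 1.16 (SE 0.3, adjusted p = 0.00403). The second agent added no change past the threshold, with 0.00 (SE 0.298) for nilotinib in hemin-treated cells. The difference in nilotinib effect of 1.16 (SE 0.422, adjusted p = 0.0474) was at the threshold, and without hemin nilotinib replicate 1, the highest library of its group, it was 0.60 (SE 0.282, adjusted p = 0.114). In that fit nilotinib lowered MTHFD1 by 0.56 in hemin-treated cells (SE 0.215, adjusted p = 0.0291). ZBTB25, on the opposite strand, held 4.45% to 30.2% of the counts of MTHFD1.

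The ratio of MTHFD1L to MTHFD1 per length was 3.35 ± 0.254 (SD, n = 3) in mock DMSO, 3.04 ± 0.453 in mock nilotinib, 7.59 ± 1.08 in hemin DMSO and 2.94 ± 1.79 in hemin nilotinib. The ratio of MTHFD2 to MTHFD1 was 9.16 ± 0.825, 4.16 ± 1.2, 19.6 ± 3.76 and 7.46 ± 5.77 in the same order. In both, the hemin DMSO libraries were above all the others, and hemin nilotinib replicate 1 was the lowest library (1.21 and 1.35).

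Placed in order of their group means, the enzymes formed a few patterns. For PHGDH, PSAT1, SHMT2, MTHFD2 and MTHFD1L, neither the DMSO groups nor the nilotinib groups differed past the threshold in the full fit. The step between the lower DMSO group and the higher nilotinib group passed for each. Without hemin nilotinib replicate 1, the nilotinib groups differed for PSAT1 (1.46, adjusted p = 4.83e-06) and MTHFD2 (0.76, adjusted p = 0.000849). For PSPH all 3 steps passed, down from mock DMSO over hemin DMSO and mock nilotinib to hemin nilotinib, the middle one with a log2 difference of -1.29 (SE 0.135, adjusted p = 4.38e-07) in a comparison where 65.8% of all genes passed. SHMT1 had a step only above hemin DMSO, and MTHFD1 only below mock DMSO. In ALDH1L2 no pair of neighbours differed past the threshold in the full fit. Without hemin nilotinib replicate 1, the DMSO groups differed for it (-0.79, adjusted p = 0.000481), as did the nilotinib groups (0.63, adjusted p = 0.031). In the full fit, ALDH1L2 was lower in cells with both agents than in those with neither (-1.53, SE 0.501, adjusted p = 0.0196). In that comparison 8 of the 9 enzymes, ALDH1L2 included, were lower, where 46.6% of all genes passed in either direction.

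Hemin nilotinib replicate 1 stood apart from the other replicates in 6 of the enzymes. Relative to the mean of the other two, replicate 1 was 10.7-fold lower in PHGDH, 10.8-fold in ALDH1L2, 6.85-fold in PSAT1, 3.01-fold in MTHFD2 and 2.06-fold in SHMT2, and 2.46-fold higher in MTHFD1. PSPH, MTHFD1L and SHMT1 stayed within a factor of 2. Of the 11 genes of ATF4 and its stress pathway, 8 were lower by more than 2-fold in the same library. Of all genes tested, 4.47% were lower there by more than 2-fold and 1.11% higher. ATF4 itself was at 138 CPM there and at 369 and 407 in replicates 2 and 3, the glutathione-degrading CHAC1 at 0.719 against 24.5 and 31.3, and the cystine carrier SLC7A11 at 80.7 against 369 and 455. MYC was at 85.3, 85.1 and 73.3 CPM in replicates 1, 2 and 3. What sets this library apart was not tested.

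**Figure D4:**
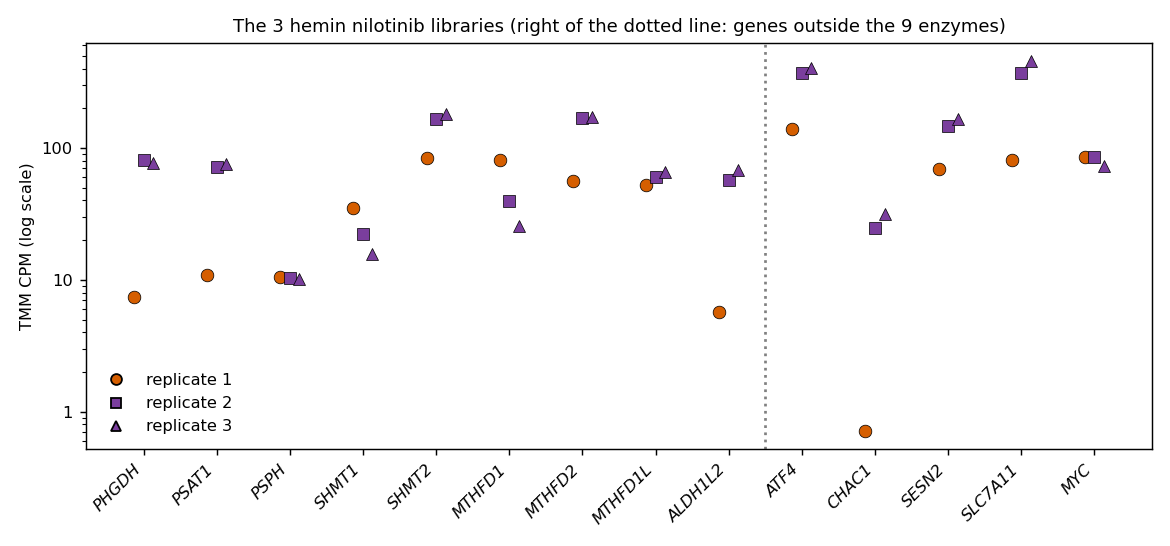
Level in CPM (y axis, log scale) in each of the 3 hemin nilotinib libraries for the 9 enzymes and 5 other genes (x axis). Replicate 1 is at 7.36 CPM for PHGDH where the other replicates are at 80.5 and 77.0, and level with them for PSPH and MYC.

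The genes around the pathway moved in several ways. Of all genes tested, nilotinib lowered 21.8% and raised 20.7% without hemin, and lowered 31.8% and raised 32.4% with it. Of 5 glycolytic genes on either side of 3-phosphoglycerate, 4 fell with nilotinib without hemin and all 5 with hemin. With hemin the largest falls were in pyruvate kinase PKM (-3.80, SE 0.191, adjusted p = 2.22e-10) and phosphoglycerate mutase PGAM1 (-1.78, SE 0.142, adjusted p = 2.69e-08). Without hemin PKM changed by -4.30 (SE 0.196, adjusted p = 2.33e-10) and PGAM1 by -1.42 (SE 0.14, adjusted p = 6.91e-07). PKM went from 609 ± 40.7 to 30.8 ± 1.87 CPM (SD, n = 3) in mock cells. The reads of PGAM1 are uncertain, since 24.9% of its 150-base words occur in transcripts of other genes. Of 9 serine and glycine carriers, 6 fell and 2 rose with nilotinib in mock cells, and 3 fell and 2 rose in hemin-treated cells. In hemin-treated cells the shares of carriers that fell and rose were near those of all genes. Under the alternatives 2 to 4 of them fell there and 1 to 3 rose. The neutral amino acid carriers SLC38A1 (-2.36 without and -1.90 with hemin) and SLC38A2 (-1.64 and -2.25) fell in both. The mitochondrial serine carrier SFXN3 rose in both (1.34 and 0.98).

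The 17 other genes of the folate cycle and transport divided differently from the 9 enzymes. With nilotinib, 4 rose and 4 fell in mock cells, near the shares of all genes (20.7% higher and 21.8% lower). In hemin-treated cells 8 rose and 1 fell, beside 32.4% and 31.8% of all genes. Hemin alone lowered 10 and raised 1, beside 27.8% and 25.7% of all genes. In nilotinib-treated cells it moved none past the threshold by edgeR, where 2.28% of all genes were lower and 3.52% higher. The median log2 fold changes were -0.08, 0.69, -0.76 and -0.07 in the same order. Without hemin nilotinib replicate 1, 9 rose and 2 fell with nilotinib in hemin-treated cells, in a fit where 13828 genes passed, against 13359 in the full fit. The folate carrier SLC19A1 was at 49.2 ± 5.11 CPM in mock DMSO, 43.1 ± 1.63 in mock nilotinib, 11.6 ± 0.976 in hemin DMSO and 40 ± 13.6 in hemin nilotinib (SD, n = 3). Hemin alone thus lowered SLC19A1 (-2.09, SE 0.194, adjusted p = 3.54e-07). Like SHMT1, it was higher with nilotinib in hemin-treated cells (1.79, SE 0.193, adjusted p = 7.65e-07). MTHFD2L, the relative of MTHFD2, did not follow it, with 0.18 (adjusted p = 0.395) for nilotinib in mock cells and a rise with hemin alone (0.91, SE 0.168, adjusted p = 0.000264). ALDH1L1, the cytosolic relative of ALDH1L2, was hardly expressed, with 0.262 to 0.45 CPM in mock DMSO.

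Of 8 purine synthesis genes, 5 fell and 1 rose with nilotinib in mock cells, 5 fell with hemin alone, and 2 rose and 2 fell with nilotinib in hemin-treated cells. Of all genes, nilotinib lowered 21.8% and raised 20.7% in mock cells, and lowered 31.8% and raised 32.4% in hemin-treated cells. Hemin alone lowered 27.8%. In hemin-treated cells the shares of purine genes that rose and fell were thus near those of all genes. Under the alternatives 1 to 3 of them rose there and 0 to 2 fell. PFAS, an early enzyme of that route, fell in mock cells with nilotinib (-1.46, SE 0.327, adjusted p = 0.00183) and with hemin alone (-1.95, SE 0.333, adjusted p = 0.000137), as MTHFD1 did. Of 7 methionine cycle and transsulfuration genes tested, 4 fell and 1 rose with nilotinib both without and with hemin, with cystathionine gamma-lyase CTH at -3.09 (SE 0.507, adjusted p = 0.000131) and -1.77 (SE 0.478, adjusted p = 0.00412). Of 3 glycine cleavage genes tested, 2 fell and 1 rose in each nilotinib comparison. AMT, the one that rose, was at 0.167 to 0.216 CPM in mock DMSO and 0.35 to 0.634 in mock nilotinib, and its call was lost in 15 of 23 alternatives without hemin and 9 of 21 with hemin. AMT and GCSH share exon bases with other genes on the same strand, 63.1% and 12% of them.

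The 11 genes of ATF4 and its stress pathway fell for the most part with nilotinib, 6 lower and 1 higher in mock cells and 9 lower and 1 higher in hemin-treated cells. Of all genes, 21.8% were lower and 20.7% higher in mock cells, and 31.8% and 32.4% in hemin-treated cells. ATF4 changed by -0.57 (SE 0.275, adjusted p = 0.105) in mock cells and fell by 1.08 (SE 0.277, adjusted p = 0.00288) in hemin-treated cells. Without hemin nilotinib replicate 1, 10 of the 11 were lower in mock cells and 9 in hemin-treated cells. The mock comparison does not hold that library and shares only the fit with it. The median log2 fold change there was -1.34, beside -1.33 in the full fit. Hemin raised 6 instead of 2 in nilotinib-treated cells, where the number of all genes that passed rose from 1208 to 2793. Hemin alone raised 4 of the 11 and lowered 1, beside 25.7% higher and 27.8% lower among all genes. Those raised included SLC7A11 (2.36, SE 0.413, adjusted p = 0.000173) and SESN2 (1.61, SE 0.288, adjusted p = 0.000202), while none of the 9 enzymes rose. MYC, whose mRNA was at 268 ± 30.6 CPM in mock DMSO and 59.1 ± 4.21 in mock nilotinib (SD, n = 3), fell by 2.18 without hemin (SE 0.132, adjusted p = 3.67e-09) and fell by 1.47 with hemin (SE 0.129, adjusted p = 8.1e-08).

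The genes whose log2 CPM over the 12 libraries was most like the mean of the 9 standardised enzymes, among 9443 genes with a mean of at least 10 CPM, were ACSL1 (Pearson r 0.989), PCK2 (0.988), TRIM6 (0.988), IQSEC2 (0.987) and FMNL1 (0.987). The closest single genes of 8 of the enzymes were FKBP9P1 for PHGDH (0.985), TUBE1 for PSAT1 (0.988), FAM171A1 for PSPH (0.994), PFKFB2 for SHMT1 (0.989), NARS for MTHFD2 (0.996), SPI1 for MTHFD1L (0.99), AARS for ALDH1L2 (0.964) and HGH1 for MTHFD1 (0.988). ACSL1 activates long-chain fatty acids, PCK2 is the mitochondrial phosphoenolpyruvate carboxykinase, and NARS and AARS charge tRNAs with asparagine and alanine. These values describe the libraries, which share their treatment groups, and carry no test.

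Promoters in the RefSeq table (GRCh38.p14, 250 bases before to 50 after each start) were found for 6 of the 9 enzymes, in 9 windows, 4 of them at MTHFD1L. The windows were searched on both strands for a C/EBP-ATF response element (TGATGNAAN, present in 3.61% of all 35116 promoters), an E-box (CACGTG, 7.26%) and an antioxidant response element (TGANNNNGC, 41.8%). The windows of 3 enzymes that fell with nilotinib in both comparisons and of SHMT1, which did not, are printed 5′ to 3′ on the strand of the gene, with matches in capitals.
PHGDH, chr1:119711684-119711983, plus strand: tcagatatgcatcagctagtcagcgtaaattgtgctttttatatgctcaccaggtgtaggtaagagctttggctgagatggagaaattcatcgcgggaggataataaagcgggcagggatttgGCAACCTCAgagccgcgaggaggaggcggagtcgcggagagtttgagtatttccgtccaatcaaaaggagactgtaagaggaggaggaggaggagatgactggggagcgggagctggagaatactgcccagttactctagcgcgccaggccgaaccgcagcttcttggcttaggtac
PSAT1, chr9:78296875-78297174, plus strand: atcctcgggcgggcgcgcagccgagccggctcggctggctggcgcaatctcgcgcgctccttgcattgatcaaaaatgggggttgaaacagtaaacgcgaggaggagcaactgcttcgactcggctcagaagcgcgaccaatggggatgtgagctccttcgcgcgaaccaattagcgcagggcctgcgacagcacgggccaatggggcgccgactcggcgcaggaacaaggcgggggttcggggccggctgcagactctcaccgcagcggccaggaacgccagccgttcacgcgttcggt
MTHFD1L, chr6:150866236-150866535, plus strand: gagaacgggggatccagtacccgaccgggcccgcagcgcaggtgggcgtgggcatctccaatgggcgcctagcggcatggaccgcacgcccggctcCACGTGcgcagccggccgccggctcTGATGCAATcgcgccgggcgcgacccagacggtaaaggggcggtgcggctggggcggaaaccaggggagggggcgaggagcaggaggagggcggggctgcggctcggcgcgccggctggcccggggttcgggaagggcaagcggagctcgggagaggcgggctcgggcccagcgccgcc
SHMT1, chr17:18363501-18363800, minus strand: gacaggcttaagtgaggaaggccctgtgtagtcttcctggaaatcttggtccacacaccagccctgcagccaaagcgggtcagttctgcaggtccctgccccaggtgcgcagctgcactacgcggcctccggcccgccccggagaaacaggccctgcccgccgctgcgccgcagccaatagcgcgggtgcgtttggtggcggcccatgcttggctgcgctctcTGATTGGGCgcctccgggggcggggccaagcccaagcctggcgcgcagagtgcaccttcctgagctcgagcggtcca
In the MTHFD1L window the capitals are an E-box and, after it, a C/EBP-ATF response element, which start 154 and 129 bases before the start site. The same sites lay in 3 of the 4 MTHFD1L windows, since these 3 overlap. The window from 150866083 also held an antioxidant response element match, and in it the C/EBP-ATF response element starts 24 bases after the start site. PHGDH and SHMT1 hold an antioxidant response element match, PSAT1 none of the 3 motifs, MTHFD2 an antioxidant response element, and MTHFD1 an E-box and an antioxidant response element. SHMT2, PSPH and ALDH1L2 had no entry. A match is a run of letters and no evidence of a bound factor.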

How the data were processed

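Total RNA of K562 cells was sequenced as 12 libraries on an Illumina NovaSeq with 150-base paired-end reads. The authors deposited raw counts per gene and FPKM, whose gene identifiers and coordinates were those of GENCODE 29 (GRCh38, given as p12 in the submitters' processing notes, which also name DESeq and DESeq2) for 58735 of 58735 genes. The aligner, the counting program and the use of strand are not given in the sources used here. The deposited FPKM used median-of-ratios size factors (largest difference 1.55e-13%) and merged exon length. A deposited table of group FPKM was not used.

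Counts were filtered with filterByExpr (minimum 10, total 15), scaled by TMM and fitted in edgeR 4.0.16 (R 4.3.3) with 1 mean per group over 12 libraries. Quasi-likelihood tests were two-sided with Benjamini-Hochberg adjustment over 20821 genes. The test was checked on simulated data. Alternatives were DESeq2 1.42.0, limma 3.58.1 on log2(FPKM + 1) or log2(FPKM + 0.1), other scalings and filters, a fold minimum of 2, a replicate block, 6 libraries, and each library left out. Deviations from the group means, in libraries of the same replicate number, correlated at 0.263, 0.199 and 0.254 between mock nilotinib and hemin nilotinib. Between the other groups the values ran from -0.0796 to 0.235, the highest for replicate 3 of hemin DMSO and hemin nilotinib. Libraries of different replicate number were not compared, so whether the numbers pair the samples was not tested. The members, gene lists and rules were chosen with earlier results of these data known. Besides the 9 enzymes, the 2 genes of each list with the largest change past the threshold in nilotinib with hemin and in hemin alone were named, plus ATF4, MYC, MTHFD2L and ALDH1L1. Of the genes these rules named, 2 are not reported here. Depth ranged from 33457078 to 50506990 counts, at which 3 counts equal 0.054 to 0.0957 CPM. The labels call the replicates biological, without naming separate cultures, so that p-values cover the spread between these samples only.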

Additional observations from a re-analysis of the deposited data

Results flagged for a closer look

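For 2 enzymes the effect of nilotinib differed between hemin-treated and mock cells by a test of the difference itself (edgeR's quasi-likelihood interaction, Benjamini-Hochberg adjusted p under 0.05, 3 libraries a group). The difference was 1.28 (log2, adjusted p = 0.00543) for SHMT1 and 1.16 (adjusted p = 0.0474) for MTHFD1. For MTHFD1 it was 0.60 (adjusted p = 0.114) without hemin nilotinib replicate 1.

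Among the named genes around the pathway, the difference also passed for SLC19A1 (1.98, adjusted p = 7.53e-05), PFAS (2.21, adjusted p = 0.00226), ADSL (1.16, adjusted p = 0.00856), MYC (0.71, adjusted p = 0.00721), SLC38A2 (-0.61, adjusted p = 0.0312), AHCYL1 (-0.63, adjusted p = 0.0165) and SESN2 (-1.34, adjusted p = 0.0191). A positive value means a less negative or more positive nilotinib effect in hemin-treated cells. Of 22 alternatives, the call was lost in 11 for SLC38A2, 7 for AHCYL1, 3 for SESN2 and 1 for MYC. It was lost in 0 for SLC19A1, PFAS and ADSL. The genes other than MYC were named for large changes in nilotinib with hemin or in hemin alone, which enter this difference. ADSL shares 18.9% of its exon bases with another gene on the same strand.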

How the results depend on the processing

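The falls of the enzymes with nilotinib kept their direction, and their counts (6 with hemin, 8 without) were 6 to 7 and 7 to 9 under all alternatives run, with 7 of the latter in limma on log2(FPKM + 0.1) and 9 in 6 libraries alone, and leave-one-out counts of 6 to 7 and 8. Of 1062 fold changes of the 9 enzymes under the alternatives, 1017 kept their side of the threshold, 28 no longer passed and 17 newly passed. No called value reversed. Among the 1017 were 36 values that passed in neither setting and changed sign. For hemin in nilotinib-treated cells, the 1 enzyme that fell (PSPH) became 0 with a filter of at least 1 count, a 2-fold minimum, limma on log2(FPKM + 1), and the 6 libraries alone without or with a replicate block. The enzymes higher became 1 with the 1-count filter. Leaving out each library gave 0 to 1 lower and 0 to 3 higher. For the difference in nilotinib effect, the 2 enzymes became 1 with RLE factors, upper-quartile factors, at least 10 counts in every library and both limma fits, 4 with the 1-count filter, and 1 to 4 leaving out each library. ALDH1L2 lost its fall with nilotinib in mock cells in limma on log2(FPKM + 0.1) (-1.61, adjusted p = 0.0638), and the fall of PSPH with hemin alone did not pass the 2-fold minimum (-0.58). The replicate block in the fit of 12 libraries changed no count of enzymes (1 higher and 6 lower with nilotinib under hemin). Counts of leave-one-out enzymes lower with hemin alone were 3 to 4.

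Over all genes, hemin in nilotinib-treated cells passed 1208 genes, against 1974 with DESeq2, 1987 with the 1-count filter, 565 with the 2-fold minimum, 741 and 694 in limma, 183 in 6 libraries alone, and 213 to 2793 leaving out 1 library (2793 without hemin nilotinib replicate 1). The 2-fold minimum took 8851 to 4872 (nilotinib without hemin), 11156 to 6474 (hemin alone) and 6271 to 4073 (difference in nilotinib effect). The causes were not tested.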
